A study of Mus musculus with 3 samples.

Results

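In mouse bone marrow, 1107 of 17879 kept cells carried RNA of at least 2 of the genes Itga1, Dpp4, Gpr183, Clec2i and Cacna1e together with at least 2 of the monocyte genes Csf1r, Cx3cr1, Klf4 and F13a1. They are called Itga1 Dpp4 Gpr183 cells here, after the genes that chose them. Cells were left out if they had much neutrophil secondary granule RNA (Ltf, Ngp, Camp and Lcn2 at 2% of UMIs or more) or MHC class II RNA (H2-Aa, H2-Ab1, H2-Eb1 and Cd74 at 20 per 10000 UMIs or more). They were also left out with both Vcan and Pla2g7, with both Ly6c2 and Ccr2, with any Cd34, or with 5 or more UMIs of Top2a, Mki67, Ube2c and Birc5. A UMI is a molecular barcode that counts 1 captured RNA molecule. The members were thus chosen by measured values, the UMIs of these 26 genes, so that their levels describe the choice and are not findings.

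The series profiled bone marrow by droplet single-cell RNA sequencing of 3' ends, in the setting of a question about whether leukaemia stem cells need Fabp4, the fatty acid-binding protein of fat cells and macrophages. There was 1 library from homozygous Fabp4 knockout mice, 1 from heterozygous Fabp4 knockout mice and 1 from wild-type mice, and each pooled marrow of 2 mice. The sample titles are the letters W, H and K with a number, which do not name a genotype, so the groups follow the genotype that each label states, with H as homozygous and K as heterozygous. The labels give no strain, age or sex and state neither the deleted part of Fabp4 nor whether leukaemia cells were in the marrow. With 1 library a genotype and no map from cells to mice, no test of genotype was possible: each difference compares these libraries, and each 95% interval covers counting error only.

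The libraries held 8115 homozygous, 10718 heterozygous and 9432 wild-type barcodes, with 54160590, 78426908 and 77173735 UMIs in that order of genotypes. After filters on UMIs, genes and mitochondrial RNA, 4318 homozygous, 7957 heterozygous and 5604 wild-type cells were kept. A mitochondrial share of 10% or more removed most of the rest, from 46.8% of homozygous, 25.8% of heterozygous and 40.6% of wild-type barcodes. Kept cells of the homozygous library held 5 Fabp4 UMIs, those of the heterozygous library 38 and those of the wild-type library 50. These few UMIs put the libraries in the order of the labels but do not settle whether the homozygous and heterozygous labels could be exchanged, which would exchange the values given for them. Among the Itga1 Dpp4 Gpr183 cells, Fabp4 had 0 UMIs in the homozygous library, 0 in the heterozygous library and 3 in the wild-type library (0.622 per 1000000 UMIs, interval 0.128 to 1.82). Taken as 3 counts, a count of 0 allows a share of cells with a Fabp4 UMI of up to 1.04% of the 288 homozygous members and up to 0.838% of the 358 heterozygous members. The absence of Fabp4 RNA in these cells was therefore not a usable check of the genotype. Libraries shared between 21 and 26 cell barcodes pairwise among barcodes, and 0 among the members.

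Monocytes of the bone marrow arise from granulocyte and monocyte progenitors, and as they mature they gain lysozyme, S100 proteins and the colony-stimulating factor 1 receptor and lose the transcription factors of stem cells. Type I interferons reach such cells through a receptor whose signal reaches the nucleus in a complex with IRF9 and switches on a broad set of antiviral genes. Of the genes used in the choice, Itga1 encodes the alpha 1 chain of a collagen-binding integrin (CD49a), Dpp4 a surface peptidase (CD26) and Gpr183 a receptor for oxysterols that guides immune cells. Clec2i encodes a C-type lectin-like ligand of NK receptors, and Cacna1e a voltage-gated calcium channel subunit.

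The members numbered 288 in the homozygous, 358 in the heterozygous and 461 in the wild-type library. They made up 6.67% of homozygous kept cells (interval 5.94 to 7.46), 4.50% of heterozygous kept cells (4.05 to 4.98) and 8.23% of wild-type kept cells (7.52 to 8.98). Over cells that passed all steps and carried 2 of the 4 monocyte genes, before the steps that set apart neighbours, the shares were 21.3% of 1353 homozygous, 27.7% of 1293 heterozygous and 28.9% of 1595 wild-type cells. The order of genotypes was thus not the same over both denominators. When every cell was thinned to 3000 UMIs, the rule found 7.02% of homozygous, 4.29% of heterozygous and 5.38% of wild-type cells, so that the homozygous share came out above the wild-type one. This thinning left out 873 homozygous, 818 heterozygous and 359 wild-type cells with too few UMIs. It also moved cells across the rule, because only 105 homozygous, 150 heterozygous and 124 wild-type of the cells found were members at full depth. Median UMIs of members were 9083 in the homozygous, 8334 in the heterozygous and 9394 in the wild-type library.

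**Figure D1:**
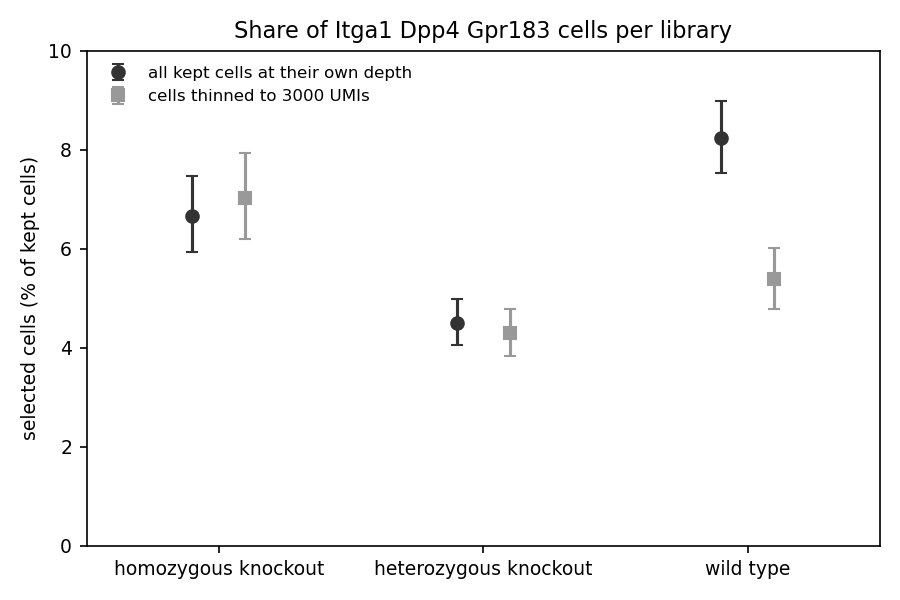
Share of kept cells (vertical axis, %) that met the rule in each library, at full depth (circles) and after thinning to 3000 UMIs a cell (squares), with exact binomial intervals for counting error. At full depth wild type was highest at 8.23%, and after thinning the homozygous library was highest at 7.02%.

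Just inside the threshold, exactly 2 of the 5 genes were found in 151 homozygous, 142 heterozygous and 172 wild-type members, with median UMIs of 8908, 9322.5 and 8818. Just outside it, 143 homozygous, 167 heterozygous and 190 wild-type cells that met all other steps carried 1 of the 5 genes, with median UMIs of 6948, 6077 and 7638.5. All 5 genes were found in 15 homozygous, 30 heterozygous and 34 wild-type members, or 5.21%, 8.38% and 7.38%. The commonest pair, Itga1 with Gpr183, was present in 67.4% of homozygous, 70.7% of heterozygous and 68.5% of wild-type members. Cells just outside the threshold were therefore shallower than those inside it in every library.

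The genes in the name were not particular to these cells. Beside the members stood 814 homozygous, 633 heterozygous and 760 wild-type cells that carried 2 of the 4 monocyte genes and passed the steps on granule, MHC class II, Cd34 and mitotic RNA, but held both Ly6c2, a surface protein of classical monocytes, and Ccr2, the receptor that brings monocytes out of the marrow. They were not asked for any of the 5 defining genes, and 624 homozygous, 491 heterozygous and 557 wild-type cells of this set carried at least 2 of them. Their median UMIs were 10537, 9068 and 10698 in that order, above those of members in each library. Itga1 was at 277 counts per 1000000 UMIs (CPM) in homozygous members against 229 in homozygous Ly6c2 Ccr2 cells, at 402 against 326 in the heterozygous library, and at 313 against 232 in the wild-type library. Dpp4 was at 47.3 CPM in homozygous members against 50.6 in homozygous Ly6c2 Ccr2 cells, at 54.4 against 44.9 in the heterozygous library and at 66.4 against 55.6 in the wild-type library. Wfdc17, a secreted WAP-domain protein of myeloid cells named among the markers of the members but not used by the rule, was lower in members in each library: 343 CPM against 662 for homozygous, 511 against 991 for heterozygous and 731 against 1287 for wild-type cells. Most members did carry Ly6c2 (91.0% of homozygous, 87.7% of heterozygous and 88.9% of wild-type members), while Ccr2 had a UMI in 3.47%, 4.19% and 4.56%, as the rule allows it only without Ly6c2.

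To show what free RNA can give, cells with neutrophil secondary granule RNA and a Retnlg UMI were read in the same way. They numbered 72 in the homozygous, 1519 in the heterozygous and 108 in the wild-type library, with median UMIs of 7787.5, 8415 and 7023. Itga1 had a UMI in 79.2% of homozygous members against 8.33% of homozygous granule cells, in 85.8% against 9.08% in the heterozygous library and in 81.6% against 4.63% in the wild-type library. Gpr183 had a gap of much the same size, with a UMI in 81.6% against 1.39%, 80.4% against 8.23% and 83.1% against 8.33% in the same order. The gap was smaller for Cacna1e and Clec2i. Cacna1e had a UMI in 35.8% of homozygous members against 12.5% of homozygous granule cells, in 50.8% against 31.9% in the heterozygous library and in 36.0% against 7.41% in the wild-type library. Clec2i had one in 45.1% against 5.56%, 57.5% against 16.9% and 61.2% against 14.8% in the same order. Dpp4 had a UMI in 28.8% of homozygous members against 0% of 72 homozygous granule cells, in 27.4% against 2.30% in the heterozygous library and in 38.0% against 3.70% in the wild-type library. The members' shares were raised by the rule itself, which asks for such a UMI. A second set, called T cell gene cells, carried at least 2 of Cd3e, Cd3d, Cd3g, Trbc2 and Lck. It held 33 homozygous, 18 heterozygous and 23 wild-type cells. They had an Itga1 UMI in 33.3%, 22.2% and 26.1%, above the granule cells. Dpp4 had one in 6.06%, 33.3% and 30.4%, and Clec2i in 30.3%, 55.6% and 26.1%. In the heterozygous library Dpp4 was above the members' share and Clec2i near it. Whether such UMIs were free RNA was not tested.

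Compared with Ly6c2 Ccr2 cells of their own library, the members had less RNA of mature monocyte genes and more of stem and progenitor genes. The rule kept cells with both Ly6c2 and Ccr2 out of the members, while these neighbours were chosen for holding both. The monocyte side of the comparison is therefore not independent of the choice of cells. It did not hold against cells with neither gene pair of the rule and under 2 of the 5 genes, as given below. Another set, 74 wild-type cells with both Vcan and Pla2g7, could be read in 1 library only. Members were kept out of that set by the rule too. Against it the monocyte core median was -1.35, with 10 of 17 genes at least 2-fold lower in members. Of all 8350 genes measured there, 4.89% were so. In members and Ly6c2 Ccr2 cells together, 9283 genes had 50 UMIs or more in each library. Of these, 72 (0.776%) were at least 2-fold higher in members in all 3 libraries and 77 (0.829%) at least 2-fold lower. The genes of the rule were not left out of these counts. These counts and those below are descriptions, and no test was made because cells of 1 library are not replicates. The share of all genes that were higher or lower in all 3 libraries, without a fold limit, was not counted. List counts of that kind, here and below, therefore stand without this background. In the list of monocyte core genes, 16 of 18 measured genes were lower in members in all 3 libraries and 4 of them were past 2-fold. The median log2 ratio of this list was -0.80 in the homozygous, -0.83 in the heterozygous and -1.06 in the wild-type library, while that of all measured genes was 0.05, 0.05 and 0.06. In the stem cell and Hox-Meis list, 14 of 15 measured genes were higher in all 3 libraries and 4 past 2-fold, with medians of 0.65, 0.74 and 0.94 in the same order.

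Lyz2, the lysozyme of monocytes and macrophages, was at 3434 CPM in homozygous members against 8997 in Ly6c2 Ccr2 cells, at 2993 against 9050 in the heterozygous library and at 2116 against 6207 in the wild-type library. S100a4, a calcium-binding protein of motile myeloid cells, stood at 403 against 1317, 399 against 1352 and 248 against 756 CPM in the same order of libraries. Both were thus well under the neighbour level in each library. The 10 genes lowest in members by the naming rule also held the chemokines Ccl6 and Ccl9, the C-type lectins Clec4a1 and Clec4a3, Crip1, Plcb1 (a phospholipase C) and Mcub. Mcub, an inhibitory subunit of the mitochondrial calcium channel, was at 5.91 CPM in homozygous members against 40.8 in Ly6c2 Ccr2 cells, with 5.41 against 58.0 in the heterozygous library and 7.05 against 33.8 in the wild-type one. Fn1 (fibronectin) was at 61.5 against 162, 93.1 against 430 and 49.8 against 272 CPM. Some monocyte regulators were close to the neighbour level, such as Spi1, which encodes the myeloid factor PU.1, at 559 against 549, 470 against 488 and 466 against 508 CPM.

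The ranking of genes higher in members than in Ly6c2 Ccr2 cells left out the genes of the rule. Its first gene, Angpt1, a ligand of the Tie2 receptor that blood stem cells also make, was at 56.3 CPM in homozygous members against 2.78 in Ly6c2 Ccr2 cells, at 153 against 22.8 in the heterozygous library and at 171 against 33.2 in the wild-type library. Dgki, a diacylglycerol kinase, was at 88.7 against 12.0, 111 against 22.5 and 115 against 25.9 CPM. Mecom, a zinc finger factor required by blood stem cells, was at 1189 against 373, 1137 against 449 and 1339 against 492 CPM. Members of every library were above their neighbours for each of the 3 genes.

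Others among the 15 highest were the transcription factor genes Sox4, Dach1 and Glis3, the nuclear protein genes Aff3, Atxn1 and Auts2, the collagen chain gene Col19a1, the eosinophil granule protein gene Prg3, Kctd1, Susd1 and Glipr1l1, and the survival gene Bcl2. Sox4 was at 42.8 against 5.34 CPM in the homozygous library and at 59.5 against 16.2 in the heterozygous one, and at 84.6 CPM with a log2 ratio of 1.76 over Ly6c2 Ccr2 cells in the wild-type library. Bcl2 was at 188 against 66.8, 224 against 90.1 and 241 against 99.9 CPM. From the stem cell list, Myb, which keeps progenitors dividing, was at 185 against 73.6, 182 against 63.7 and 185 against 88.7 CPM. Meis1, the cofactor of Hox proteins, was at 913 against 507, 887 against 530 and 1322 against 688 CPM. Primary granule genes, which progenitors of the granulocyte and monocyte lines make, were higher in 7 of 8 measured cases in all 3 libraries. Elane (neutrophil elastase) was at 1193 against 430, 1464 against 391 and 1465 against 774 CPM.

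Elane and Mecom RNA were also found in neutrophil granule cells, which had an Elane UMI in 58.3% of homozygous, 69.2% of heterozygous and 76.9% of wild-type cases, at 667, 795 and 608 CPM. Mecom was at 305, 516 and 371 CPM in the same granule cells. Member levels were above these granule cell levels in each library. In the T cell gene cells Elane was at 2502 CPM in the homozygous, 596 in the heterozygous and 252 in the wild-type library. Mecom was there at 272, 98.3 and 179 CPM. The homozygous Elane level of these cells was thus above that of members, and the other levels were below. The part of free RNA in the member levels was not tested. Genes of DNA synthesis were higher in members in 25 of 25 measured cases in all 3 libraries, with 0 past 2-fold and medians of 0.34, 0.77 and 0.57 on the log2 scale. The rule itself removed cells with mitotic RNA from both sets alike. With another set of neighbours the direction of primary granule genes turned, and that of DNA synthesis genes was mixed. Against the 251 homozygous, 301 heterozygous and 300 wild-type cells with neither pair of genes and under 2 of the 5, 9 of 9 measured primary granule genes were lower in members in all 3 libraries, with medians of -1.80, -1.01 and -1.10. Of 24 measured DNA synthesis genes, 0 were higher and 5 lower in all 3 libraries there, with medians of -0.68, 0.31 and -0.20. These neighbours were shallower than members, with median UMIs of 6252, 5717 and 7274.5. Stem cell and Hox-Meis genes were higher in 9 of 16 cases and lower in 2, and monocyte core genes higher in 6 of 17 and lower in 2. Medians were 0.26, 0.20 and 0.37 for the stem cell list and 0.57, 0.04 and -0.07 for the monocyte core list. The 74 wild-type cells with both Vcan and Pla2g7 gave the direction seen against Ly6c2 Ccr2 cells. There 6 of 8 primary granule, 15 of 23 DNA synthesis and 16 of 17 stem cell and Hox-Meis genes were at least 2-fold higher in members. Of all 8350 genes measured there, 15.6% were so.

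**Figure D2:**
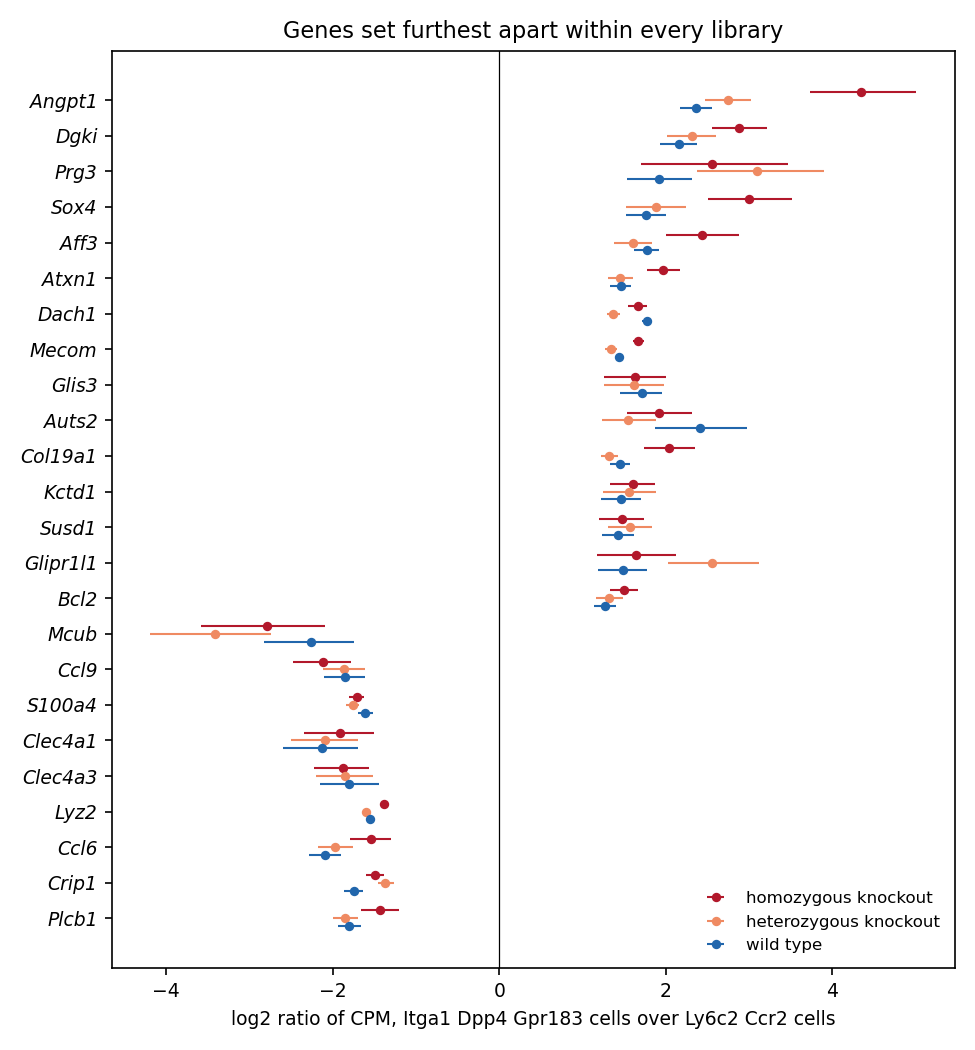
Log2 ratio of CPM in Itga1 Dpp4 Gpr183 cells over Ly6c2 Ccr2 cells of the same library (horizontal axis) for genes among the 15 highest and 10 lowest by the naming rule, with 1 point per library and lines for the interval of counting error. Angpt1 has ratios of 4.34 in the homozygous, 2.75 in the heterozygous and 2.36 in the wild-type library, and Lyz2 has -1.39, -1.60 and -1.55.

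On the label "monocyte-like" the data were divided. Summed over the 19 monocyte core genes outside the rule, members stood at 11693 CPM in the homozygous, 10436 in the heterozygous and 8603 in the wild-type library, and none of these genes was at 0. The median cell held 93.0, 91.9 and 76.6 per 10000 UMIs of this list in members, against 207, 196 and 156 in Ly6c2 Ccr2 cells. The median cell's stem and Hox-Meis sum was 92.5 in homozygous, 102 in heterozygous and 125 in wild-type members, against 51.9, 55.8 and 66.7 in Ly6c2 Ccr2 cells. Outside the genes of the rule, those that led the members over Ly6c2 Ccr2 cells were not monocyte genes, so no cell type name is given here.

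Single markers of several other types were at or near 0, while the lists around them were not all so. Markers of progenitors and neutrophils were not all near 0. Elane had a UMI in 75.3% of homozygous, 74.6% of heterozygous and 87.2% of wild-type members, and Mpo in 22.2%, 29.3% and 42.5%. Retnlg had one in 33.0% of heterozygous members, against 1.39% of homozygous and 1.52% of wild-type members. C1qa (macrophages) had 0, 0.300 and 0 CPM in homozygous, heterozygous and wild-type members. Siglech (plasmacytoid dendritic cells), Cd3e (T cells), Cd79a (B cells) and Hba-a1 (red cells) were at 2.09 CPM or less, and Ncr1 (NK cells), Fcer1a (mast cells and basophils) and Epx (eosinophils) were at 0 in all 3 libraries. The plasmacytoid dendritic cell list of 12 genes nevertheless summed to 1394 CPM in homozygous, 1171 in heterozygous and 1486 in wild-type members, against 1049, 899 and 1096 CPM in Ly6c2 Ccr2 cells, with 4 genes over 10 CPM. It holds Irf8 and Runx2, which monocytes and their progenitors also express. The eosinophil list summed to 13.2, 33.6 and 41.7 CPM in members, mostly from Prg3 at 11.8, 26.4 and 35.1 CPM. The mast cell and basophil list summed to 54.7 CPM or less in each library. The part of such cells in the results was not tested. Adgre1, which encodes F4/80 of macrophages and monocytes, was at 139, 171 and 150 CPM, and Flt3, a receptor of progenitors and dendritic cells, at 21.2, 54.4 and 21.0 CPM. The 10 late neutrophil genes outside the rule summed to 2848 CPM in homozygous, 8621 in heterozygous and 2812 in wild-type members, and the 9 primary granule genes to 5465, 6647 and 6746 CPM.

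Members differed among themselves along the number of defining genes they carried. This number was part of the choice of cells, so the split describes the rule and is no independent finding. Mecom in homozygous members was at 875 CPM with 2 of the 5 genes, 1449 with 3 and 1673 with 4 or 5. It was at 841, 1118 and 1547 CPM in heterozygous members and at 921, 1196 and 2000 CPM in wild-type members, in the same order of gene number. Each library thus had more Mecom in members with more of the 5 genes. Dgki was at 67.2, 81.1 and 165 CPM in homozygous, 71.2, 118 and 160 in heterozygous and 67.2, 108 and 181 in wild-type members. DNA synthesis genes ran the other way, with sums of 1386, 1198 and 1091 CPM in homozygous, 1388, 1098 and 1051 in heterozygous and 1498, 1172 and 949 in wild-type members. With 1 of the 5 genes, outside the rule, the sums were 2073 CPM in homozygous, 1052 in heterozygous and 1424 in wild-type cells. The run thus went on outside the rule in the homozygous library only. Cells just outside, with 1 of the 5 genes, had Mecom at 665 CPM in the homozygous, 890 in the heterozygous and 715 in the wild-type library. Elane there was at 3289, 2010 and 3249 CPM, against 888, 1042 and 889 CPM in members with 4 or 5 of the genes.

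When all 4241 cells that carried the monocyte genes were grouped without the 26 genes of the rule, 10 clusters formed and the members spread over several. One cluster took 54.2% of homozygous, 45.5% of heterozygous and 55.3% of wild-type members, 574 in all, and members made up 54.5% of it. Its leading genes were Dgki, BC035044, Angpt1 and Pik3ip1, and it also held 328 Ly6c2 Ccr2 cells. Most of the other members fell into clusters that held them mainly from 1 library. A cluster led by Ifit3, Ifi211, Ifit2 and Oasl2 held 30.9% of homozygous members, against 1.40% of heterozygous and 2.39% of wild-type members. A cluster led by Slc15a2, Eif2s3y and Bach2 held 37.4% of heterozygous members, against 1.74% of homozygous and 2.60% of wild-type members. A cluster led by Aff3, P2ry14 and Skint3 held 25.6% of wild-type members, 3.82% of homozygous and 2.23% of heterozygous members. With 1 library a genotype, such a cluster may be that library and not a cell type.

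**Figure D3:**
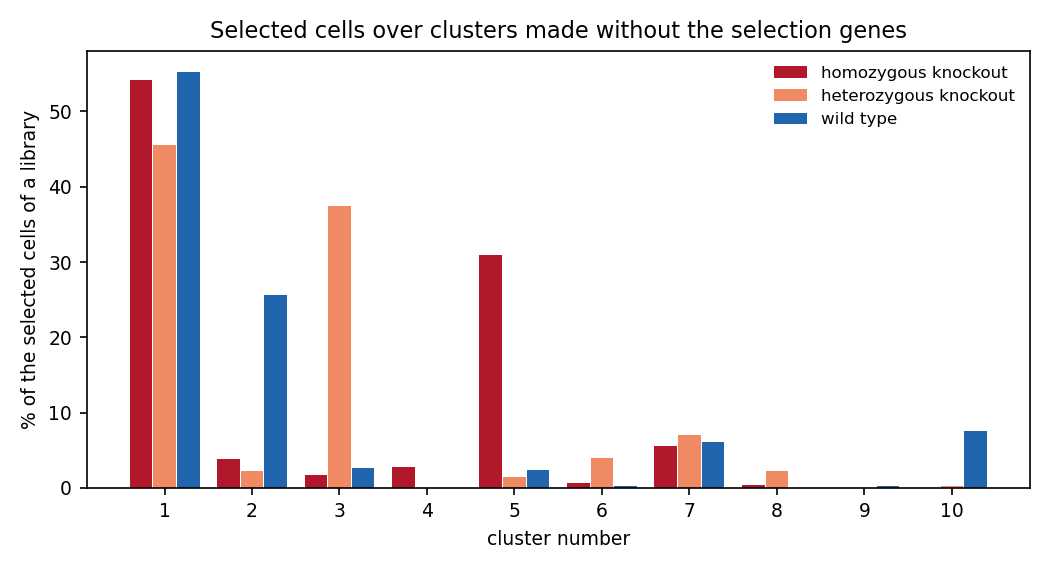
Share of each library's Itga1 Dpp4 Gpr183 cells (vertical axis, %) in each of 10 clusters of monocyte gene cells, made without the genes of the rule. Cluster 1 took 45.5% to 55.3% of the members of each library, while clusters 5, 3 and 2 took 30.9% of homozygous, 37.4% of heterozygous and 25.6% of wild-type members.

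Homozygous members had more interferon-response RNA than wild-type members across nearly the whole list. Of 9185 genes with 50 UMIs or more in the 2 sets of members, 181 (1.97%) were at least 2-fold higher in the homozygous library and 167 (1.82%) at least 2-fold lower, and the median log2 ratio was 0.03. By any amount, 4993 of the 9185 were higher and 4192 lower in homozygous members. This is the background for the counts of list genes below. Of 41 interferon-response genes in the files and outside the rule, 38 were measured, and all 38 were higher in homozygous than in wild-type members, with 32 past 2-fold and a median log2 ratio of 1.43. Ifit3b, Ifi44 and Gbp2 had too few UMIs. The list was chosen with earlier results of these data known, and is no independent evidence of its direction. Chemokine genes were kept in a list of their own, where Cxcl10 was lower in homozygous than in wild-type members, as given below.

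Ifit3, an antiviral protein that binds foreign RNA together with its family members, was at 28.2 CPM in homozygous, 11.7 in heterozygous and 2.90 in wild-type members. It had a UMI in 37 homozygous, 12 heterozygous and 9 wild-type members, and its homozygous over wild-type log2 ratio was 3.28 (interval 2.45 to 4.21). Ifi211, of the interferon-inducible HIN family, was at 60.8 CPM in homozygous, 10.2 in heterozygous and 5.60 in wild-type members (log2 ratio 3.44, 2.85 to 4.08). For both genes the homozygous library stood well above the other 2. Ifit2 was at 59.1, 12.0 and 7.88 CPM (log2 ratio 2.91, 2.39 to 3.45), and Ifi204, a DNA-binding member of the same HIN family, at 80.0, 25.8 and 15.6 CPM (2.36, 1.98 to 2.76). Ifi27l2a was the most abundant of those named, at 598 CPM in homozygous, 238 in heterozygous and 143 in wild-type members (2.06, 1.93 to 2.19).

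The list covered several roles. Isg15, a ubiquitin-like protein that is attached to other proteins, was at 94.9 CPM in homozygous, 29.4 in heterozygous and 26.6 in wild-type members (1.84, 1.53 to 2.15), and Usp18, which removes it, at 51.1, 12.3 and 10.2 CPM (2.33, 1.85 to 2.83). Among the transcription factors, Irf7 was at 177, 55.3 and 47.1 CPM and Irf9 at 61.9, 46.8 and 35.3 CPM. The homozygous library was highest for each of these genes, and the heterozygous one was above wild type by less. Bst2 (tetherin, which holds budding viruses on the cell) was at 191, 58.6 and 73.4 CPM. Cmpk2 had the smallest difference in the list, at 15.6 CPM in homozygous, 11.1 in heterozygous and 13.1 in wild-type members, and its log2 ratio of 0.26 had an interval from -0.33 to 0.83.

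Promoter sequence is shown for Ifit3, Isg15 and Ifi211 because they come from different families of the list and each has a match to the core of the interferon-stimulated response element. The letters searched were GAAA, any 2 bases and GAAA, on either strand, in the 250 bases before each RefSeq gene start (GRCm38.p6). Capitals mark the matches, and each stretch is written 5' to 3' on the strand of its gene.
Ifit3, chr19:34583353-34583436, plus strand: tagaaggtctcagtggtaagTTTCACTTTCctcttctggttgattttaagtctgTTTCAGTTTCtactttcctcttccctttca
Isg15, chr4:156200855-156200916, minus strand: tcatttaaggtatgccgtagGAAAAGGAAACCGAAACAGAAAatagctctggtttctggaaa
Ifi211, chr1:173913054-173913103, minus strand: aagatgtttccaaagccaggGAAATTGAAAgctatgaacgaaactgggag

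Ifit3 held 2 separate matches, both on the strand opposite to the gene. Isg15 held 3 that overlap one another, and Ifi211 held 1. Of the 31 interferon-response genes with a promoter in the table, 16 (51.6%) held at least 1 match, against 936 of all 27025 genes (3.46%). These are matches of letters and are no evidence that a factor was bound in these cells.

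The interferon difference was spread over many cells and was also present outside the members. The median homozygous member held 26.1 interferon-response UMIs per 10000 (quartiles 12.3 and 44.0), against 7.66 in heterozygous (3.90 and 15.2) and 7.27 in wild-type members (3.44 and 14.1). Above the wild-type upper quartile lay 198 of 288 homozygous members (68.8%), 103 of 358 heterozygous members (28.8%) and 115 of 461 wild-type members (24.9%). In Ly6c2 Ccr2 cells the median cell held 46.0, 18.5 and 13.8 per 10000 UMIs in the homozygous, heterozygous and wild-type library, and there 40 of 40 measured genes were higher in the homozygous library, 31 of them past 2-fold. Of all 10735 genes measured in those cells, 6160 were higher and 224 past 2-fold higher. Members had lower levels of this list than Ly6c2 Ccr2 cells of their own library, with 27 of 36 measured genes lower in all 3 libraries. Against cells with neither pair of genes and under 2 of the 5, the list ran the other way. There 19 of 28 measured genes were higher in members in all 3 libraries and 1 lower, with medians of 0.67, 0.53 and 0.69. Among members in the shared cluster alone, 30 of 30 measured genes were higher in the homozygous library, 23 of them past 2-fold, with a median of 1.27. Of all 7929 genes measured there, 4325 were higher and 177 past 2-fold higher.

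**Figure D4:**
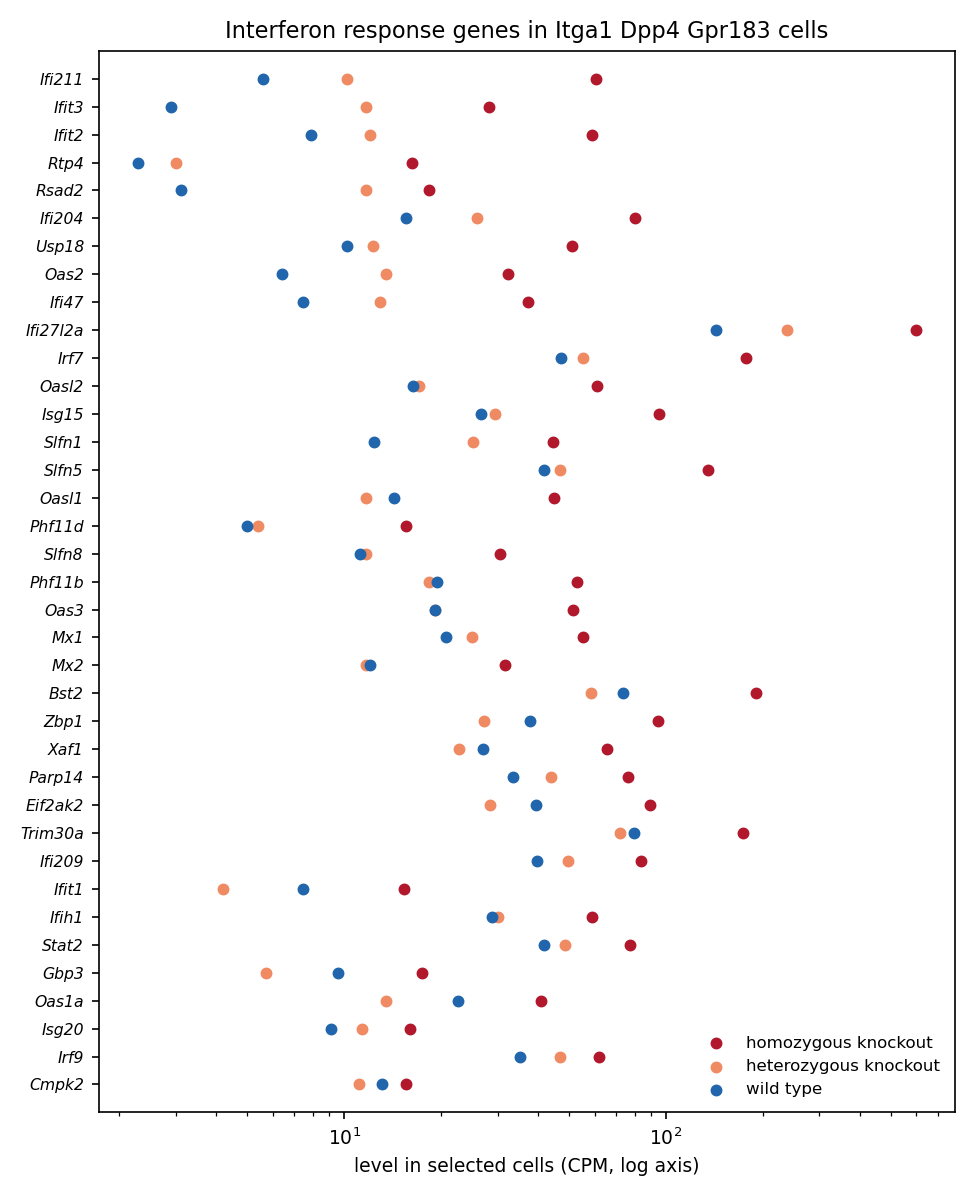
Level (horizontal log axis, CPM) of measured interferon-response genes (rows, ordered by the homozygous over wild-type ratio) in Itga1 Dpp4 Gpr183 cells of each library, with 1 point per library and no error bar. The homozygous point lies to the right of the wild-type point in every row drawn, from Ifi211 (60.8 against 5.60 CPM) at the top to Cmpk2 (15.6 against 13.1 CPM) at the bottom.

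Genes of MHC class I and of mature monocytes were also higher in homozygous members, by less. All 13 measured MHC class I genes were higher in the homozygous library, with 0 past 2-fold and a median log2 ratio of 0.46. B2m, the light chain of class I, was at 529 CPM in homozygous, 477 in heterozygous and 359 in wild-type members, while H2-K1 was at 339, 404 and 334 CPM. Of 18 measured monocyte core genes, 16 were higher and 3 past 2-fold, with a median of 0.56. Fcgr1, the high-affinity IgG receptor, was at 15.3 CPM in homozygous, 2.10 in heterozygous and 3.11 in wild-type members (log2 ratio 2.30, 1.42 to 3.25), and Psap, a precursor of lysosomal activators, at 470, 258 and 193 CPM (1.28, 1.16 to 1.40). The exceptions were Emb at -0.32 and Cd14 at -0.05.

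Of the primary granule genes, 8 of 8 measured were lower in homozygous members and 2 past 2-fold, with a median of -0.36. Mpo (myeloperoxidase) was at 93.9 CPM in homozygous, 168 in heterozygous and 199 in wild-type members, and Nkg7 at 16.3, 57.1 and 65.8 CPM. This direction depended on which members were read: within the shared cluster the median of the list was 0.18 and 5 of 8 genes were higher in the homozygous library. There 4325 of all 7929 measured genes were higher. Among stem cell and Hox-Meis genes, 12 of 17 were lower in homozygous members and 2 past 2-fold, Pbx3 and Gata2. Pbx3, a homeobox partner of Hox and Meis proteins, was at 231 CPM in homozygous, 1158 in heterozygous and 1597 in wild-type members. It had a UMI in 109 of 288 homozygous, 329 of 358 heterozygous and 413 of 461 wild-type members, and a log2 ratio of -2.79 (-2.91 to -2.68). Meis1 had a log2 ratio of -0.53, while Hoxa9 was at 215 CPM in homozygous, 112 in heterozygous and 182 in wild-type members.

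By the naming rule, the 10 top-ranked genes of homozygous members, relative to wild type, included 6 of the interferon list (Ifi211, Ifit3, Ifit2, Ifi204, Ifi27l2a and Usp18). The other 4 were Cacnb2, Cdk5rap1, Nrp2 and Arhgef37. Cacnb2, a calcium channel beta subunit, was at 92.5 CPM in homozygous, 21.6 in heterozygous and 18.7 in wild-type members (2.31, 1.96 to 2.67). Nrp2, a co-receptor of semaphorins and VEGF, was at 26.8, 6.01 and 4.36 CPM in members, with a log2 ratio of 2.62, and had a ratio of 0.48 (0.16 to 0.80) in Ly6c2 Ccr2 cells. The difference between these 2 ratios was not tested.

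The 10 genes lowest in homozygous over wild-type members were Pbx3, Adgrl4, Aff3, Diaph3, P2ry14, Mgmt, Fbxl18, Col19a1, Dach1 and Glb1l. Dach1, a transcription factor gene, was at 433 CPM in homozygous, 852 in heterozygous and 1475 in wild-type members (-1.77, -1.86 to -1.68). P2ry14, the receptor of UDP-glucose, was at 27.5, 31.8 and 126 CPM, and Aff3 at 42.1, 132 and 218 CPM. Heterozygous members lay with the homozygous library for P2ry14 and between the other 2 libraries for Dach1 and Aff3. Each of the 20 ranked genes had the same direction in Ly6c2 Ccr2 cells. Wfdc17 had a log2 ratio of -1.09, and Slpi, another WAP-domain inhibitor, was at 720 CPM in homozygous, 1787 in heterozygous and 1781 in wild-type members.

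Among fatty acid uptake genes, of interest because Fabp4 carries fatty acids, 11 of 16 measured were higher in homozygous members, with 0 past 2-fold higher, 1 past 2-fold lower and a median of 0.19. Over all genes 4993 of 9185 were higher, so the count of this short list is not read as a result. The gene past 2-fold lower was Lpl (lipoprotein lipase), at 3.48 CPM in homozygous, 9.61 in heterozygous and 12.2 in wild-type members. Fabp5, another fatty acid-binding protein of macrophages, was at 34.8, 25.2 and 30.9 CPM. Of 21 measured fatty acid oxidation genes 10 were higher and 11 lower, with 0 past 2-fold either way.

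**Figure D5:**
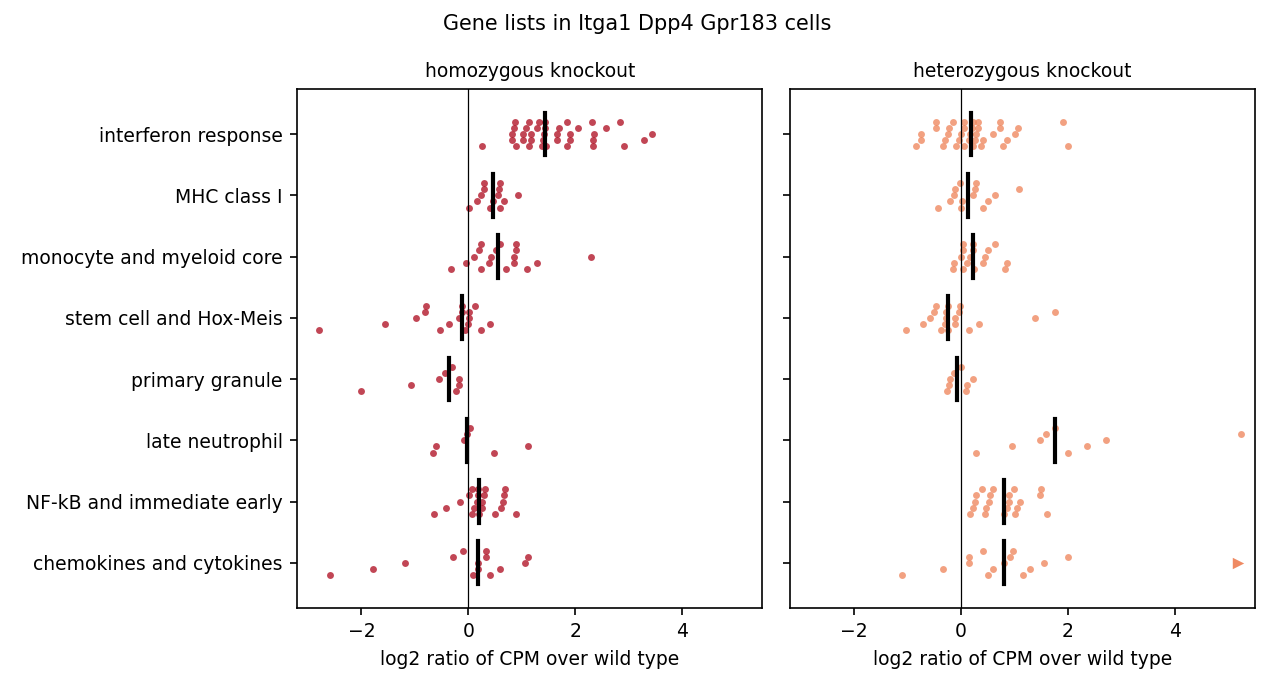
Log2 ratio of CPM over wild type (horizontal axis) for each measured gene (dots) of 8 gene lists in Itga1 Dpp4 Gpr183 cells, for the homozygous (left) and heterozygous (right) library; black bars are list medians. Interferon-response genes lie to the right in the homozygous library (median 1.43), and late neutrophil genes in the heterozygous one (median 1.77); the triangle is Cxcl9, drawn at its bound because wild-type members had 0 UMIs.

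Heterozygous members differed from wild-type members mostly in other lists. This comparison uses the same wild-type library as the one above. Of 9279 measured genes, 163 (1.76%) were at least 2-fold higher in heterozygous members and 110 (1.19%) at least 2-fold lower, with a median log2 ratio of -0.02. By any amount, 4424 of the 9279 were higher and 4855 lower, the background for the list counts that follow. Interferon-response genes were higher in 24 of 36 measured cases with 4 past 2-fold and a median of 0.18. In the shared cluster 6 of 18 were higher and the median was -0.44, while 3658 of all 7811 genes measured there were higher.

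The 21 measured genes of NF-kB signalling and the immediate early response, which cells switch on within minutes of a stimulus, were all higher in heterozygous than in wild-type members. Of these, 7 were past 2-fold and the median log2 ratio was 0.81. Fos was at 1117 CPM in homozygous, 2156 in heterozygous and 700 in wild-type members, with a heterozygous over wild-type log2 ratio of 1.62 (1.56 to 1.68). Egr1 was at 117, 211 and 74.5 CPM, Jun at 1483, 1982 and 919 CPM, and Nfkbia, the inhibitor of NF-kB, at 677, 820 and 570 CPM. Homozygous members lay between the other 2 libraries for these 4 genes. In Ly6c2 Ccr2 cells 19 of 21 of the list were higher in the heterozygous library, with a median of 0.63. Of all 10369 genes measured in those cells, 4924 were higher. The labels do not give the time from marrow collection to capture, and handling and genotype cannot be told apart between single libraries.

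Chemokine and cytokine genes were higher in heterozygous members in 13 of 15 measured cases, with 5 past 2-fold higher, 1 past 2-fold lower and a median of 0.81. Cxcl2, which attracts neutrophils, was at 87.6 CPM in homozygous, 586 in heterozygous and 200 in wild-type members, and Ccl3, a chemokine of inflamed tissue, at 476, 949 and 421 CPM. Cxcl9 had 75 UMIs in a single heterozygous cell, 8 UMIs in a single homozygous cell and 0 in wild-type members. Its level in the heterozygous library was at least 36.2-fold higher than the floor of 3 counts in the wild-type library, and it rests on that 1 cell. The list median is the same with Cxcl9 at this bound. Cxcl10 went the other way, at 7.30 CPM in homozygous, 11.7 in heterozygous and 25.1 in wild-type members.

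Late neutrophil genes were higher in heterozygous than in wild-type members in 9 of 9 measured cases, with 7 past 2-fold and a median of 1.77. S100a8 and S100a9, which form calprotectin, were at 1416 and 1250 CPM in homozygous, 4029 and 4178 in heterozygous, and 1442 and 1223 in wild-type members. Retnlg was at 4.52 CPM in homozygous, 70.6 in heterozygous and 1.87 in wild-type members, in 4 homozygous, 118 heterozygous and 7 wild-type cells. Ly6g was at 2.43, 31.5 and 4.77 CPM and Mmp9 (a matrix protease of neutrophil granules) at 11.5, 63.4 and 12.2 CPM. The heterozygous library also held by far the most granule cells with Retnlg, 1519 against 108 in wild type. In its Ly6c2 Ccr2 cells 8 of 9 of these genes were higher than in wild type, with a median of 1.60, against 4924 of all 10369 genes. The median cell held 36.3 per 10000 UMIs of the list in heterozygous members and 34.5 in heterozygous Ly6c2 Ccr2 cells. The part of free neutrophil RNA in these values was not tested.

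The ranked genes of the heterozygous library were led by Slc15a2, the peptide transporter PEPT2. It had 0 CPM in homozygous, 63.4 in heterozygous and 0.830 in wild-type members, in 0 homozygous, 121 heterozygous and 2 wild-type cells (log2 ratio over wild type 6.25, 4.88 to 8.14). Cxcl9 and Retnlg were among the 10 highest too, with the stefin and cystatin genes Stfa2, Stfa2l1, Cstdc4 and Cstdc5, and with Thbs1 (thrombospondin), Adgre4 and G0s2. Stfa2, an inhibitor of cysteine proteases made by neutrophils, was at 43.8 CPM in homozygous, 228 in heterozygous and 21.4 in wild-type members.

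The 10 lowest included Mid1, Satb1, Inpp4b, Myo1e, P2ry14, Ikzf2, Mgmt, Prickle1 and Ly6k. Satb1, which organises chromatin loops, was at 174 CPM in homozygous, 66.7 in heterozygous and 377 in wild-type members (-2.50). Ikzf2, the transcription factor Helios, was at 348, 233 and 709 CPM (-1.61). Wild type was highest for both genes, and heterozygous members were lowest. Inpp4b rests on few cells, with 54 UMIs in 6 wild-type members, and its ratio turned to 0.28 among members with 3 or more of the 5 genes.

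Sex-linked RNA set the heterozygous library apart. Members with Xist, the RNA of the inactive X chromosome, and no Y-linked UMI were 262 of the homozygous (91.0%), 103 of the heterozygous (28.8%) and 428 of the wild-type members (92.8%). Members with Y-linked UMIs and no Xist were 11 homozygous (3.82%), 151 heterozygous (42.2%) and 5 wild-type members (1.08%). The sex make-up of the mice and the heterozygous genotype therefore cannot be told apart between libraries. Read in members with Xist only, interferon-response genes were higher in the homozygous library in 38 of 38 cases with a median of 1.46. Of all 9020 genes measured there, 4839 were higher. In members with Xist only the heterozygous library was higher in 19 of 20 NF-kB and immediate early genes (median 0.72) and in 7 of 7 late neutrophil genes (median 0.84). It was higher in 3802 of all 8304 genes measured.

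Within the heterozygous library, members with Y-linked UMIs only were set against those with Xist only. Of 6046 measured genes, 52 (0.860%) were at least 2-fold higher and 23 (0.380%) at least 2-fold lower in the Y-linked set. Slc15a2 was at 80.9 CPM in the Y-linked and 40.9 in the Xist set (log2 ratio 0.99, 0.45 to 1.55), and Satb1 at 24.3 and 95.3 CPM (-1.97). Pbx3 was at 1139 CPM in the Y-linked and 1153 in the Xist set. All 75 Cxcl9 UMIs came from the Y-linked set. NF-kB and immediate early genes were higher in 8 of 20 cases (median -0.07), and late neutrophil genes in 9 of 9 with 0 past 2-fold (median 0.56). The share of all genes higher by any amount was not counted for these 2 sets. If the library pooled a male and a female mouse, these are single animals, and the labels do not say so.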

How the data were processed

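The authors deposited UMI counts as whole numbers, without normalization, for 33696 genes and every cell barcode. Per the file headers Cell Ranger 8.0.1 made them, and per the labels' protocols the libraries used the 10x Chromium 3' v3 kit. The submitters' processing notes name Cell Ranger, STAR and mm10, and the annotation release is not given in the sources used here. Genotypes come from the labels. Of the gene symbols, 26 stand on more than 1 identifier, and a symbol was read from the first, in the order of the files.

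The cell filter asked for 500 UMIs or more, 200 genes or more and under 10% mitochondrial UMIs. Members were chosen by the rule given above, and the members and the 38 gene lists were chosen with earlier results of these data known. UMIs were summed over cells per library and expressed as CPM (per 1000000 UMIs of that sum). A gene counted as measured with at least 50 UMIs in the 2 sets compared, and past 2-fold is a description, not a test. Intervals at 95% are exact Poisson (Garwood) for levels, exact conditional for ratios and Clopper-Pearson for shares. They cover counting error only. Where a library had no UMI of a gene, 3 counts stood in as its floor. Genes named by rank are those whose ratio interval lay farthest from 0 at its nearer bound: 15 higher and 10 lower against neighbours (50 UMIs or more in each library, worst library taken), and 10 a direction between genotypes (50 UMIs or more in 1 library). Rule genes, sex-linked, mitochondrial, ribosomal, haemoglobin and antigen receptor genes and unnamed models were left out. List genes named as examples were chosen after their values were seen.

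Doublets were not removed. The automatic threshold of Scrublet marked 0 homozygous, 3 heterozygous and 2 wild-type cells, so an alternative removed the top-scoring cells at 0.8% per 1000 barcodes (280 homozygous, 682 heterozygous and 423 wild-type cells). Monocyte gene cells were clustered (2000 variable genes less those of the rule, Xist, Y-linked genes and Fabp4, 30 components, 15 neighbours, Leiden resolution 0.5). The code was tested on simulated counts. Other settings numbered 13, and 1 more was added later. Promoters are RefSeq's on GRCm38.p6. Clustering used scanpy 1.11.5, anndata 0.12.19, scikit-learn 1.9.0 and python-igraph 0.11.9, and the other steps Python 3.11.15 with pandas 2.3.3, numpy 2.4.6, scipy 1.17.1 and matplotlib 3.10.9. A few genes that the lists or the naming rule hold are not reported by name or drawn.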

Additional observations from a re-analysis of the deposited data

How the results depend on the processing

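Counting error is the only error these data can give, and 1 library a genotype limits every comparison. The share of members depended on the rule and the filter. With 3 of the 5 genes it was 3.17% in the homozygous, 2.71% in the heterozygous and 5.16% in the wild-type library. With mitochondrial shares up to 25% it was 4.68% in the homozygous and 6.69% in the wild-type library, and with at least 1000 UMIs and under 5% mitochondrial UMIs it was 7.80% in the homozygous library. Without the MHC class II step it was 5.96% in the heterozygous library, and after thinning 5.38% in the wild-type library. The other 13 of these values kept within their interval. Counts of genes past 2-fold followed the UMI minimum: at 20 UMIs there were 382 higher and 390 lower in homozygous members and 338 higher and 322 lower in heterozygous members, and at 200 UMIs 59 higher and 67 lower in homozygous and 59 higher and 21 lower in heterozygous members. Without the MHC class II step 250 genes were higher in heterozygous members, and among members with Xist only 232 were lower. Of the values for named genes, 412 moved by less than their limit and 50 by more, and Inpp4b was reversed, at 0.28 with 3 of the 5 genes for heterozygous over wild-type members. Of the list medians, 731 moved by less than their limit and 36 by more. Reading the cluster that holds more members of each library than any other cluster was chosen after seeing the data. Members with Y-linked UMIs only were not run as an alternative, because they numbered 11 homozygous and 5 wild-type cells. No paired analysis was possible because each genotype has 1 library.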

Other observations

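Genes of the machinery that all cells use differed little between members and their neighbours. In members against Ly6c2 Ccr2 cells of the same library, 23 of 28 measured ribosomal protein genes, 20 of 26 oxidative phosphorylation genes and 18 of 25 lysosome genes were lower in all 3 libraries, but 0 ribosomal protein and 0 oxidative phosphorylation genes were past 2-fold, and of lysosome genes 1 was past 2-fold higher and 1 lower. Against cells with neither pair of genes and under 2 of the 5 defining genes, 0 of 28 ribosomal protein genes were lower and 5 higher in all 3 libraries, and of 24 lysosome genes 11 were higher and 2 lower. Between genotypes, 27 of 28 measured ribosomal protein genes were lower in homozygous than in wild-type members (median log2 ratio -0.12), and 28 of 28 were lower in heterozygous than in wild-type members (-0.19). Both comparisons use the same wild-type library. Cyp27a1, a mitochondrial enzyme that makes oxysterols, was at 12.9 CPM in homozygous, 19.5 in heterozygous and 4.77 in wild-type members, while Gpr183, a receptor for oxysterols, was used to choose the cells. Flt3 had a log2 ratio of 1.38 in heterozygous over wild-type members. No explanation of these values was tested.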
